A study of Mus musculus with 6 samples.

Results

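Immediate early genes are switched on within minutes of a growth signal, of calcium entry or of stress, without the need for new protein. Kinases of the MAP kinase cascades phosphorylate transcription factors that already sit at these genes, among them CREB and the partners of SRF, and also serines of histone H3 at their promoters. Their products are mostly short-lived transcription factors and inhibitors that end the signal, and in embryos they can also respond to the handling of tissue at collection.

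The 9 immediate early genes described here were chosen by symbol, and all 9 were found among the 23366 genes in the count files. They are the AP-1 genes Fos, Fosb, Jun and Junb, the related factor Atf3, the zinc finger factors Egr1 and Egr3, the small nuclear regulator Ier2, and Dusp1, which encodes a phosphatase that switches off MAP kinases. Polyadenylated RNA came from 6 samples of whole mouse embryo at E10.5, of mixed C57BL/6, CD1 and 129 strain. The 3 knockout embryos were H3f3a fl/- and H3f3b fl/-, and the 3 control embryos were H3f3a fl/+ and H3f3b fl/+. H3f3a and H3f3b both encode histone H3.3, the variant that is deposited outside DNA replication. All 6 embryos also carried Sox2-Cre Tg/0, a recombinase transgene active in the epiblast, and were Trp53-/-. The controls therefore also lacked p53, and their floxed alleles were open to deletion, so no embryo here gives the level with intact p53 and H3.3 genes.

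The libraries held 24952853 to 30461689 counts in genes. H3f3a was 5.16-fold lower in the knockouts (67.7 ± 2.91 CPM in knockouts and 349 ± 15.4 CPM in controls, SD, n = 3 each; CPM is the count of a gene relative to the TMM-scaled size of its library). H3f3b was at 455 ± 56.8 CPM in knockouts and 691 ± 31.5 CPM in controls (edgeR adjusted p = 0.0257, and up to 0.14 with single libraries left out), and Trp53 reads were at 4.52 ± 1.27 CPM in knockouts and 2.75 ± 0.49 CPM in controls (0.169). Markers of neural tissue, muscle, heart, liver, limb bud and red cells were detected in every embryo as lists. Among them edgeR called the heart gene Nppa higher in knockouts and the liver gene Ttr lower, against 0.551% of all genes called higher and 0.955% lower. All 6 neuron markers had folds below 0, with 4 at an unadjusted p under 0.05. Of all genes, 49.7% had folds above 0, and 8.53% had folds below 0 at an unadjusted p under 0.05. The labels give neither litter nor time of collection for an embryo. A code in the names of the deposited files is shared by knockouts 2 and 3 and by no knockout with a control, and its meaning is not given. With neither litter nor time recorded, embryo collection and genotype cannot be told apart. Nor do the labels say that each sample is a single embryo, so the p-values gauge just the variation among these 6 samples. Libraries stood apart within the knockouts: reads outside genes made up 18.3% of alignments in knockout 1 and 18.0% in knockout 3, against 10.6% in knockout 2 and 9.79% to 13.1% in controls.

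Many immediate early promoters carry a cAMP response element, the site that CREB and ATF factors bind. Promoter windows of 6 of the 9 genes were read from RefSeq (build GRCm38.p6), and 5 of them held its core TGACG on either strand in the 250 bases before the start, as did 17.8% of 32851 promoter windows of all genes. The full palindrome TGACGTCA, which contains the core on both strands, was found in Dusp1 alone, and in 1.55% of all windows. The CArG box bound by SRF and the AP-1 site TGANTCA were found in none of the 6 windows, and in 1.47% and 6.75% of all windows. The EGR site GCGNGGGCG was found in Fosb and in 4.70% of all windows. No window was used for Egr1, Egr3 and Ier2. In the other genes, sites more than 250 bases before the start were not searched and would be missed. A match is a run of letters and not a bound site. The stretches printed here are 100 bases each, 5′ to 3′ on the strand of the gene, and capitals mark the core on either strand. They are shown because 5 of the 6 windows share these letters.
Fos (chr12:85473790-85473889, + strand): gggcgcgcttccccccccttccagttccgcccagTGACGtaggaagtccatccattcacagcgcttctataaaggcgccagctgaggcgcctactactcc
Fosb (chr7:19310046-19310145, - strand): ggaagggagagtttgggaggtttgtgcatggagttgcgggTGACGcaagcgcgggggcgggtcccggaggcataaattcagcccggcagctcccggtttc
Junb (chr8:84978775-84978874, - strand): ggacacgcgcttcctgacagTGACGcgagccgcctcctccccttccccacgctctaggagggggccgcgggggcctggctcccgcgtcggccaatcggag
Atf3 (chr1:191183334-191183433, - strand): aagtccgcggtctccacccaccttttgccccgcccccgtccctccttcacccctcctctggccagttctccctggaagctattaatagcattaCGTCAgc
Dusp1 (chr17:26508584-26508683, - strand): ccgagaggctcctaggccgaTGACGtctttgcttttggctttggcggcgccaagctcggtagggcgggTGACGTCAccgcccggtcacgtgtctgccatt
Jun (chr4:95052223-95052322, - strand): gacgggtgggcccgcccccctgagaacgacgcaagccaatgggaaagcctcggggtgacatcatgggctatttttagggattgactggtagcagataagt
Jun is the one with a window and no exact match to the core, and near matches were not counted in any window. The cores began 66 bases before the start in Fos, 60 in Fosb and 106 in Junb, and the one in Atf3 lay 7 to 3 bases before it. Dusp1 had cores that began 191 and 143 bases before the start, and Fos held a further core, outside the stretch shown, at 129 bases.

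The comparison asked whether the immediate early genes differ between p53-null embryos that carry no + allele of either H3.3 gene and those that carry a + allele of each. By edgeR's test on all 6 libraries, none of the 7 genes with enough counts was called, and DESeq2 called 1, Egr1. Egr1 came closest, at 1.60-fold higher in the knockouts with the embryos of the groups fully apart. Fos and Fosb also had all knockouts above all controls, at low counts. Ier2, Junb, Atf3 and Dusp1 overlapped between the groups, and the groups of Jun were apart by 0.04 CPM. All 7 tested genes were highest in the same embryo, knockout 2. In RNA of whole embryos, fewer cells that express a gene and less of its RNA per cell cannot be told apart.

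The filter on low counts kept 7 of the 9 genes and left out Egr3 and Fosb. By edgeR's quasi-likelihood test, 0 of the 7 reached an adjusted p under 0.05, where 1.51% of the 15075 genes tested did (0.551% as higher and 0.955% as lower). At an unadjusted p under 0.05 there was 1 of 7 (Egr1), against 19.2% of all genes (10.7% higher and 8.53% lower). DESeq2 called 1 (Egr1, higher), against 5.17% of the genes it tested (3.03% higher and 2.14% lower). The log2 fold changes of the 7 ran from -0.19 to 0.68 with a median of 0.17, and 6 were above 0. That median was 0.066 without knockout 2, 0.32 without knockout 3, 0.11 without control 3 and 0.54 in a fit adjusted for the percentage of alignments outside genes, and with no filter on low counts the median of all 9 genes was 0.32. Over all genes tested the median was -0.0010, and 49.7% were above 0. The groups did not overlap for 3 of the 7, all with the knockouts higher, as for 11.8% of all genes in that direction, 12.3% in the other and 24.1% in either. With each library left out in turn, the genes of the set called were 2 of 7 without knockout 2 (Egr1 higher and Ier2 lower), where 10.8% of all genes were called (7.55% higher and 3.28% lower). They were 0 of 7 without knockout 1 or 3 and without control 1, 2 or 3, where 1.53%, 0.663%, 0.458%, 0.392% and 0.784% of all genes were called. With the counts of knockouts 2 and 3, which share a file code, summed into 1 library, 0 of the 7 were called, against 2.93% of all genes.

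**Figure D1:**
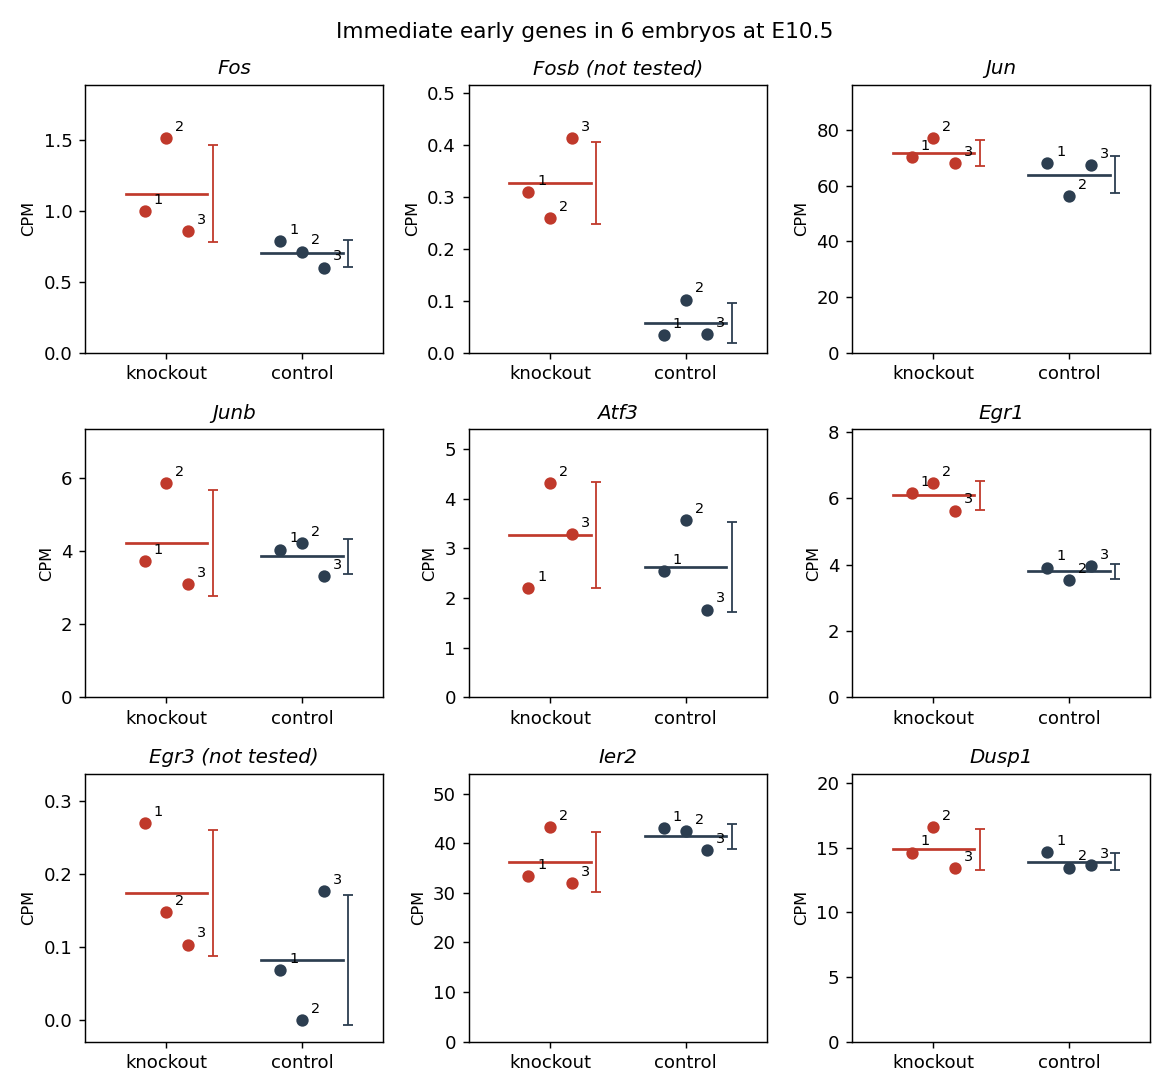
Level of each of the 9 genes in CPM (y axis, starting at 0 except for Egr3, where it starts just below) in the 3 knockout and 3 control embryos, numbered by embryo; horizontal lines are group means and bars beside them ± 1 SD (n = 3). Egr1, Fos and Fosb have all knockouts above all controls, while Ier2 lies between 32.0 and 43.2 CPM in knockouts and between 38.6 and 43.1 CPM in controls.

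Egr1 encodes a zinc finger factor that growth signals induce through SRF and its partners. Its level was 6.17, 6.46 and 5.63 CPM in knockouts 1, 2 and 3, against 3.91, 3.54 and 3.96 CPM in controls 1, 2 and 3, from 160, 175 and 164 counts against 114, 104 and 112. The groups were well apart and the embryos of each group close together, with a coefficient of variation of 6.95% in knockouts and 6.06% in controls, where counting error alone would give 7.75% and 9.54%. The log2 fold change was 0.68 ± 0.15 (SE; 95% interval 0.35 to 1.01) with an edgeR adjusted p of 0.0628, which misses the threshold. Egr1 was called by DESeq2 (adjusted p = 0.0137), without knockout 2 (edgeR adjusted p = 0.0351) and in a fit adjusted for the percentage of alignments outside genes, which called 4.96% of all genes (edgeR adjusted p = 0.0381). Only knockout 2 of the knockouts lay within the range of that percentage in controls, so the adjusted fit leans on this embryo. With single libraries left out the edgeR adjusted p of Egr1 ran from 0.0351 to 0.268, and its log2 fold change from 0.63 to 0.73.

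Egr3, its relative with a role in muscle spindles and lymphocytes, was barely detected. It had 7, 4 and 3 counts in knockouts and 2, 0 and 5 in controls, which is 0.174 ± 0.0863 CPM in knockouts and 0.0818 ± 0.0891 CPM in controls (SD, n = 3 each). Over pooled counts the ratio of knockouts to controls was 2.11, with an exact 95% interval of 0.799 to 6.19 that covers counting error only. The groups overlapped, and a difference was not detectable at this depth (two-sided exact permutation p = 0.3, where 0.1 is the smallest p that 3 against 3 allows).

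Fos, whose protein pairs with Jun proteins to form AP-1, is the classic immediate early gene and is nearly silent in resting cells. It had 26, 41 and 25 counts in knockouts and 23, 21 and 17 in controls, or 1.00, 1.51 and 0.858 CPM against 0.789, 0.714 and 0.601 CPM. All knockouts lay above all controls, and knockout 2 was the highest. The log2 fold change was 0.67 ± 0.31 (SE; 95% interval -0.014 to 1.36) and the edgeR adjusted p 0.266. Without knockout 2 the log2 fold change was 0.40 (edgeR adjusted p = 0.42).

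Fosb, the closest relative of Fos among the 9, had 8, 7 and 12 counts in knockouts and 1, 3 and 1 in controls. These are 0.308, 0.259 and 0.412 CPM in knockouts against 0.0343, 0.102 and 0.0353 CPM in controls, so the groups were fully apart at a level where 3 counts in a library amount to 0.102 to 0.116 CPM. The ratio over pooled counts, 27 against 5, was 5.71, with an exact 95% interval of 2.17 to 19.0 for counting error only. The two-sided exact permutation p was 0.1, the smallest that 3 against 3 allows. With no filter on low counts, edgeR gave Fosb an adjusted p of 0.0794 and Egr3 one of 0.55, and called 0 of the 9 genes, against 1.71% of 19178 genes. Fosb was highest in knockout 3 and lowest of the knockouts in knockout 2, unlike the 7 tested genes.

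Jun, the main partner of Fos proteins and also able to pair with itself, stood at 70.2, 76.9 and 68.2 CPM in knockouts against 68.2, 56.2 and 67.3 CPM in controls. Knockout 3 and control 1 were separated by 68.19 and 68.15 CPM, so the groups met almost exactly there. Its log2 fold change was 0.17 ± 0.095 (SE), at an adjusted p of 0.355 by edgeR. In the annotation, exons of the antisense gene Junos overlap Jun. The strand setting of the counting is not given in the sources used here, so how reads in the overlap were counted is not known.

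Junb, which often opposes Jun at shared targets, had 3.74, 5.87 and 3.09 CPM in knockouts against 4.05, 4.22 and 3.32 CPM in controls. The highest and the lowest embryo were both knockouts, and its log2 fold change of 0.13 ± 0.24 (edgeR adjusted p = 0.798) turned to -0.18 without knockout 2 (edgeR adjusted p = 0.562).

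Atf3, a stress-induced factor of the CREB and ATF family that can pair with Jun proteins, spread widely within both groups. It had 2.20, 4.32 and 3.30 CPM in knockouts against 2.54, 3.57 and 1.77 CPM in controls. Its coefficient of variation was 32.5% in knockouts and 34.5% in controls, where counting error would give 10.54% and 11.5%. The log2 fold change was 0.32 ± 0.31 (SE; edgeR adjusted p = 0.594), and 0.066 without knockout 2.

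Ier2, a short nuclear protein induced by serum, was the one tested gene with a fold below 0. Its levels were 33.4, 43.2 and 32.0 CPM in knockouts against 43.1, 42.5 and 38.6 CPM in controls. Knockouts 1 and 3 lay below every control, and knockout 2 lay just above all of them. The log2 fold change was -0.19 ± 0.12 (SE), at an adjusted p of 0.398 by edgeR. Without knockout 2 it was -0.34 ± 0.090 and was called (edgeR adjusted p = 0.0366). In the fit adjusted for the percentage outside genes the fold turned to 0.028. Ier2 has a single exon in the annotation, as do Jun and Junb.

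Dusp1, the phosphatase that closes the loop by removing phosphate from MAP kinases, was close in level across the embryos. It had 14.6, 16.6 and 13.5 CPM in knockouts against 14.7, 13.5 and 13.6 CPM in controls. The log2 fold change was 0.096 ± 0.11 (SE; 95% interval -0.16 to 0.35), at an adjusted p of 0.664 by edgeR. The 95% intervals of Jun, Ier2, Dusp1 and Junb, which reached from -0.46 to 0.68 between them, left out a 2-fold difference in either direction, while those of Egr1, Fos and Atf3 did not.

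**Figure D2:**
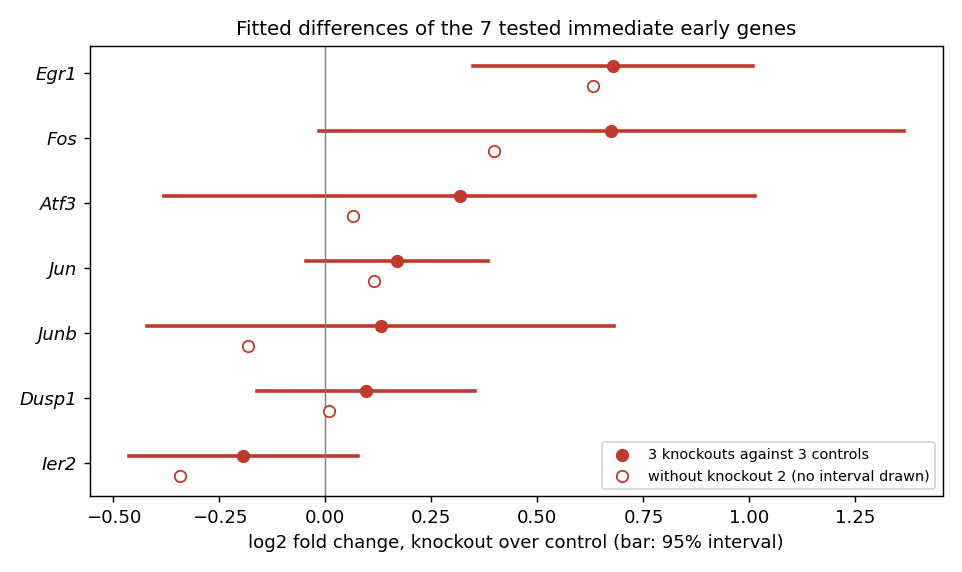
Log2 fold change of the 7 tested genes, knockout over control (x axis), with 95% intervals of the edgeR fit as bars; open circles are the fits without knockout 2. Only the interval of Egr1 leaves out 0, and Junb moves to the other side of 0 without knockout 2.

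Knockout 2 stood apart from the other embryos across these genes. It was the highest of the 6 libraries for 7 of the 7 tested genes, as it was for 20.3% of all genes tested. The median over the 7 genes of log2(CPM + 0.5), against the mean of controls, was 0.07, 0.55 and 0.10 in knockouts 1, 2 and 3 and 0.066, 0.018 and -0.098 in controls 1, 2 and 3. By this median knockouts 1 and 3 lay just above the highest control, and by gene they were above all controls for Egr1, Fos, Fosb and Jun and below all of them for Ier2. Summed over the 9 genes, the level was 132, 155 and 127 CPM in knockouts against 137, 124 and 129 CPM in controls, most of it from Jun and Ier2. Among the 7 genes, the pair whose log2 CPM ran most nearly together over the 6 libraries was Fos and Dusp1 (Pearson r = 0.89), and the least alike was Egr1 with Ier2 (r = -0.47). Taken as deviations from the group means, Egr1 and Ier2 had r = 0.50, Fos and Dusp1 r = 0.94, and the highest pair was Fos with Ier2 at r = 0.99. These correlations describe 6 libraries that differ in depth and in share of reads outside genes. Knockout 2 was the highest of them for all 7 genes, and the correlations were not computed without it.

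**Figure D3:**
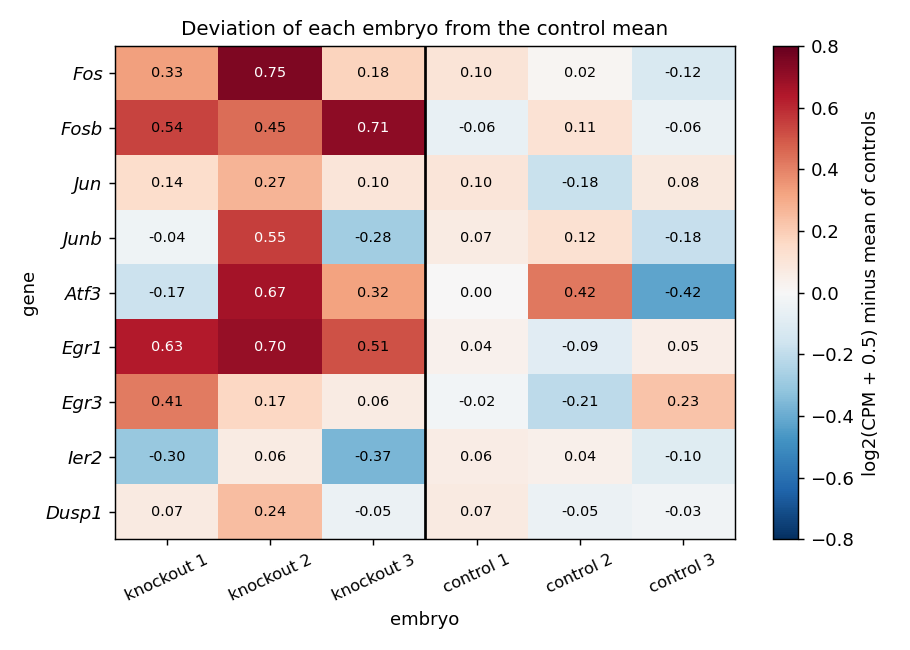
Difference of log2(CPM + 0.5) from the mean of controls for each gene (rows) and embryo (columns, knockouts left of the line and controls right of it), with red above and blue below the control mean. The column of knockout 2 is above 0 in every row, and Ier2 is at -0.30 in knockout 1 and -0.37 in knockout 3.

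Per length, the order of the genes was alike in the groups. In CPM per kilobase of exon, Ier2 had 23.8 in knockouts and 27.2 in controls, and Jun 22.5 in knockouts and 20.03 in controls. Dusp1 followed with 6.28 in knockouts and 5.87 in controls, then Junb with 2.34 in knockouts and 2.13 in controls and Atf3 with 1.52 in knockouts and 1.22 in controls. Egr1 had 1.36 in knockouts and 0.848 in controls, and Fos 0.534 in knockouts and 0.333 in controls. Fosb and Egr3 came last: Fosb had 0.0863 in knockouts and 0.0151 in controls, and Egr3 0.0423 in knockouts and 0.0199 in controls. In knockouts the ranges of Ier2 and Jun overlapped, as did those of Junb, Atf3 and Egr1 in turn, and in controls those of Atf3 and Egr1 and of Egr3 and Fosb. Of the AP-1 subunit genes of the Jun and Fos families, Jund, the member that resting cells express, held 69.1% ± 0.48 of the summed level per kilobase in knockouts and 74.1% ± 0.91 in controls (SD, n = 3 each). Jun held 25.8% ± 1.22 in knockouts and 21.8% ± 0.92 in controls, and Fos 0.601% ± 0.114 in knockouts and 0.365% ± 0.057 in controls. Embryos of the groups were apart for these 3 shares, which sum with the others to a fixed total and so do not move independently. Jund itself was at a log2 fold change of -0.17 (edgeR adjusted p = 0.432).

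Other immediate early and early response genes were compared as a list of 40, of which 37 were tested. None was called by edgeR, 10 had an unadjusted p under 0.05 (8 with folds above 0 and 2 below), and DESeq2 called 2, Cyr61 and Ctgf, as higher. Over all genes, 10.7% had an unadjusted p under 0.05 with a fold above 0 and 8.53% with one below. DESeq2 called 5.17% of all genes (3.03% higher). Without knockout 2, edgeR called 1 of 38, Cyr61, against 10.8% of all genes, and the median was 0.08. The median log2 fold change was 0.11, and 25 of 37 folds were above 0. Cyr61, which encodes a matrix protein induced by serum and by stretch, had 26.4, 41.9 and 24.8 CPM in knockouts against 21.0, 20.3 and 19.1 CPM in controls. Its log2 fold change was 0.63 ± 0.18 (SE), with an edgeR adjusted p of 0.132. Its relative Ctgf had 20.6, 32.7 and 19.4 CPM in knockouts against 16.1, 15.5 and 16.7 CPM in controls, at 0.59 ± 0.18 (0.147). Both had all knockouts above all controls and knockout 2 above the rest. Of the 37 genes, the groups did not overlap for 7 with the knockouts higher and 3 with them lower. Over all genes these shares were 11.8% and 12.3%. Without knockout 2 the log2 fold changes were 0.35 for Cyr61 and 0.31 for Ctgf.

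Other genes of that list also had unadjusted p-values under 0.05. The nuclear receptor gene Nr4a1 was at a log2 fold change of 0.46, the clock gene Per1 at 0.33, Klf6 and the kinase gene Sgk1 at 0.22, and the small Maf gene Maff at 0.85. Tnfaip3, an inhibitor of NF-kappaB, had 4.39, 11.7 and 5.63 CPM in knockouts against 4.46, 4.05 and 3.64 CPM in controls, at a log2 fold change of 0.84. Of the genes with folds below 0, the survival gene Mcl1 was at -0.20 and Klf2, a flow-responsive gene of endothelium, at -0.47. Without knockout 2 the log2 fold changes were 0.42 for Maff, 0.31 for Tnfaip3, 0.30 for Nr4a1, 0.14 for Klf6 and -0.29 for Klf2. Adjusted p-values by edgeR lay between 0.156 (Per1) and 0.255 (Sgk1) for these 8 genes. The neuronal immediate early gene Npas4, not tested, had 11, 2 and 14 counts in knockouts and 2, 5 and 5 in controls. The other genes not tested were Egr4, with 1 count in all, and Fosl1, with 2, 3 and 3 counts in knockouts and 1, 0 and 1 in controls. Knockout 2 was the highest library for 19 of the 37.

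**Figure D4:**
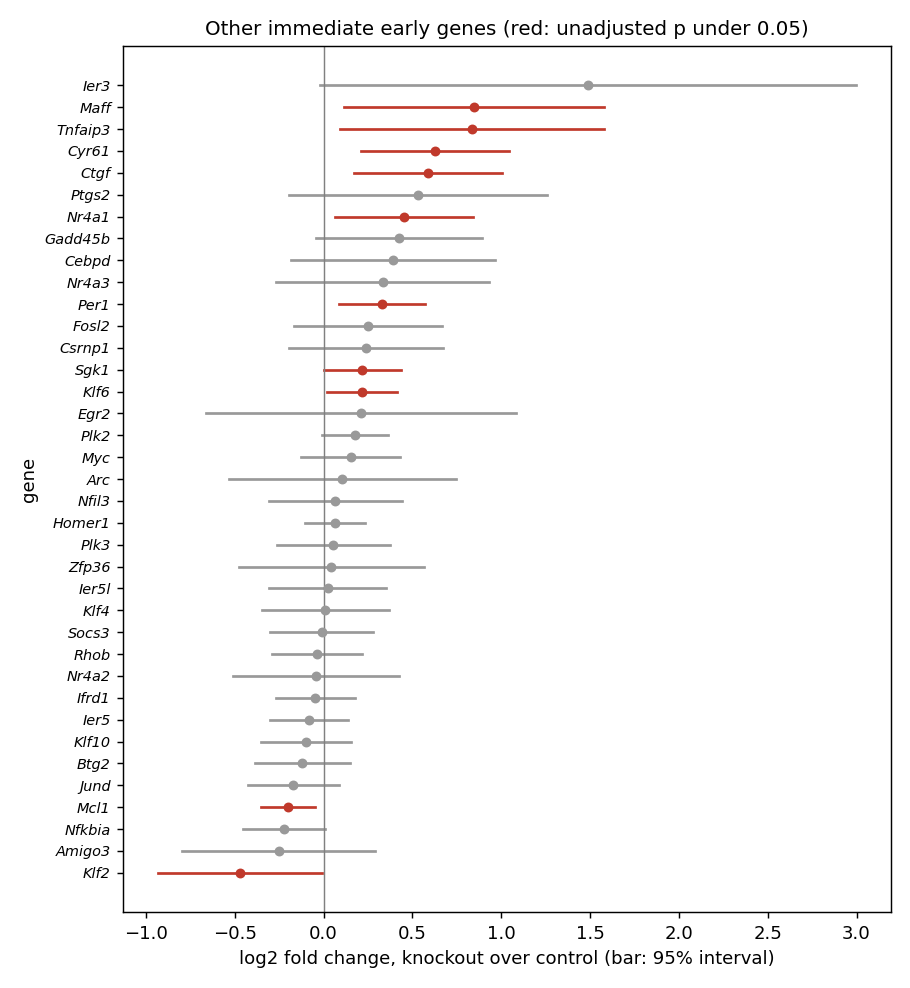
Log2 fold change, knockout over control (x axis), of the 37 other early response genes tested, with 95% intervals of the edgeR fit; red marks the 10 with an unadjusted p under 0.05. Maff, Tnfaip3, Cyr61 and Ctgf lie highest among the red genes and Klf2 and Mcl1 below 0, and no gene passes the adjusted threshold.

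The pathway that drives these genes gave no calls by edgeR. Among 25 kinases of the growth factor and stress cascades, 3 had an unadjusted p under 0.05, against 19.2% of all genes. DESeq2 called 1 of the 25 as higher, the Raf kinase gene Araf, against 3.03% of all genes called higher. Araf had 57.0, 45.6 and 61.9 CPM in knockouts against 38.8, 38.3 and 43.1 CPM in controls (log2 fold change 0.45 ± 0.12, edgeR adjusted p = 0.0999). Its relative Braf was at 0.27. Of 14 genes for SRF, its partners, CREB and its coactivators, 3 had an unadjusted p under 0.05, against 19.2% of all genes. DESeq2 called 1 of the 14 as higher, the CREB coactivator gene Crtc2, against the same 3.03% of all genes. Crtc2 had 29.9, 20.7 and 30.0 CPM in knockouts against 17.4, 17.8 and 21.1 CPM in controls, so that knockout 2 lay within the range of the controls. Crebbp, which encodes the acetyltransferase CBP, was at 0.34 and Creb1 at -0.17. The medians were 0.038 for the kinases and 0.096 for these factors. Without knockout 2, edgeR called 2 of the kinases (Araf and Braf) and 2 of these factors (Crtc2 and Crebbp), all higher, where 7.55% of all genes were called higher.

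Feedback inhibitors of the same pathway had 5 of 16 genes at an unadjusted p under 0.05, all with folds above 0, against 10.7% of all genes in that direction, and neither edgeR nor DESeq2 called any. Spry4 and Spry2, which encode inhibitors of receptor signalling, were at log2 fold changes of 0.31 and 0.26, and Dusp6, the phosphatase of ERK kinases, at 0.24 (0.14 without knockout 2). Dusp6 had 117, 136 and 105 CPM in knockouts against 99.0, 104.5 and 98.8 CPM in controls, apart but by less than 1 CPM between the nearest embryos. The 16 had a median of 0.13. Among 11 tested partners of AP-1 proteins and related factors, neither tool called any and 3 had an unadjusted p under 0.05, against 19.2% of all genes. These were Maf at -0.34, Mafg at 0.36 and the leukocyte gene Batf at -0.83. Without knockout 2, edgeR called 1 feedback gene, Dusp7, as lower and 1 partner, Mafg, as higher, where 3.28% of all genes were called lower and 7.55% higher.

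Other genes were high in knockout 2 as well. The median of 19 genes of the response to low oxygen, against the mean of controls, was 0.21, 1.67 and 0.73 in knockouts 1, 2 and 3 and -0.022, 0.10 and -0.041 in controls 1, 2 and 3. All 19 folds were above 0, as were 49.7% of those of all genes tested. DESeq2 called 3 of the 19 as higher, against 3.03% of all genes, and edgeR called 1, Vegfa, against 0.551%. Vegfa, the vascular growth factor gene, was at 84.9, 127.5 and 130.6 CPM in knockouts against 33.2, 38.1 and 49.2 CPM in controls (log2 fold change 1.51 ± 0.19, edgeR adjusted p = 0.00699). Vegfa lost its call without control 2 (edgeR adjusted p = 0.0665) and in the fit adjusted for the percentage outside genes (adjusted p = 0.076). The vascular peptide gene Adm had 3.35, 18.4 and 4.98 CPM in knockouts against 1.37, 1.53 and 1.27 CPM in controls, and the transcription factor gene Bhlhe40 had 6.47, 35.6 and 12.0 CPM in knockouts against 3.57, 2.79 and 3.60 CPM in controls. Their log2 fold changes were 2.67 for Adm and 2.44 for Bhlhe40, both called by DESeq2 and not by edgeR. Without knockout 2 they were 1.58 for Adm and 1.48 for Bhlhe40, both called by edgeR. Without knockout 2, edgeR called 9 of the 19 genes, all higher, where 7.55% of all genes were called higher. The median log2 fold change of the list was then 0.48, against 1.02 with all libraries. Knockout 2 was the highest library for 17 of these 19 genes and for 8 of 8 endothelial markers, against 20.3% of all genes. Of the endothelial markers 1, Kdr, was called higher by edgeR, as were 0.551% of all genes. DESeq2 and the edgeR fit without knockout 2 each called 3 of the 8 as higher, against 3.03% and 7.55% of all genes. The part of the low oxygen response in the levels of the immediate early genes was not tested.

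Heat shock genes as a list set knockout 2 little apart. Their median against the mean of controls was -0.15, 0.089 and 0.0058 in knockouts and 0.036, 0.074 and -0.13 in controls. Knockout 2 was thus just above control 2, and it was the highest library for 4 of the 12 genes, against 20.3% of all genes. Neither edgeR nor DESeq2 called any of 12, and 2 had an unadjusted p under 0.05, against 19.2% of all genes. The 2 were the inducible chaperone genes Hspa1a and Hspa1b, both with folds above 0, against 10.7% of all genes in that direction. Hspa1a had 0.539, 0.85 and 1.30 CPM in knockouts against 0.24, 0.17 and 0.353 CPM in controls (log2 fold change 1.82 ± 0.44, edgeR adjusted p = 0.0865). Hspa1b had 1.54, 2.36 and 2.23 CPM in knockouts against 0.995, 1.02 and 1.06 CPM in controls (1.00 ± 0.24, 0.0889). These genes are near-identical copies, and reads that align more than once were not counted, so the levels of both may be understated. Without knockout 2, Hspa1a was called by edgeR (adjusted p = 0.0351), where 7.55% of all genes were called higher. Hsp90aa1, the inducible cytosolic chaperone of the Hsp90 family, was at -0.24.

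**Figure D5:**
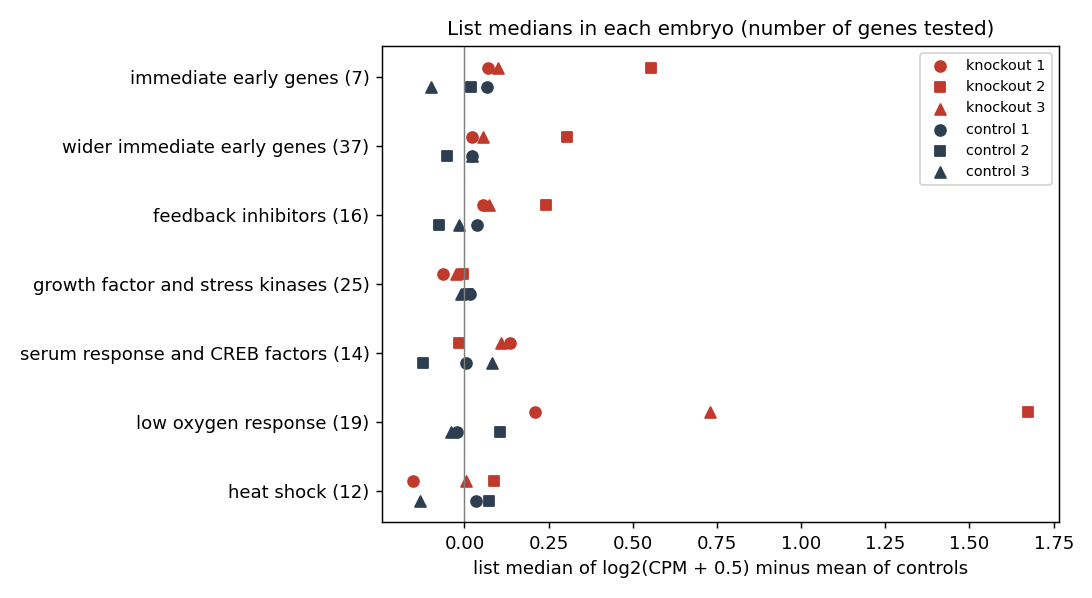
Median over each list of log2(CPM + 0.5) minus the mean of controls (x axis) in each embryo, with the number of genes tested in brackets; red symbols are knockouts 1 to 3 and dark symbols controls 1 to 3. Knockout 2 lies at 0.55 for the immediate early genes, 0.30 for the wider list, 0.24 for the feedback inhibitors and 1.67 for the low oxygen response.

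Macrophage markers were nearly absent from the knockouts. Of 12 macrophage markers, 11 were called lower in the knockouts by edgeR, as were 0.955% of all genes, and Cd68 was not called. Their summed level was 3.07 to 4.55 CPM in knockouts and 62.9 to 75.3 CPM in controls, and C1qb and C1qc were at 0 in every knockout. Macrophages express several of the 9 genes, and their part in the levels was not tested. Of 9 tested erythroid markers none was called by edgeR or DESeq2, and none had an unadjusted p under 0.05. Without knockout 2, edgeR called 2 of them, Epor and Slc4a1, as higher, where 7.55% of all genes were called higher. Knockout 2 had the lowest summed level (5686 CPM, against 8356 and 9274 CPM in the other knockouts and 7756 to 9899 CPM in controls).

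The genes whose levels ran most like the mean of the 7 tested genes were Klhl22, Mta3, Scarb1, Ndfip2, Fggy and Zeb1. Over the 6 libraries their log2 CPM had Pearson r from 0.98 to 0.99 with that mean, chosen as the highest among genes of at least 5 CPM, and Spearman rho from 0.49 to 0.83. The mean itself was set by 1 library, at 0.36 in knockout 2 and between -0.21 and -0.0089 in the other 5. Scarb1, the receptor for high density lipoprotein, was at 24.9, 31.7 and 25.2 CPM in knockouts against 24.5, 23.5 and 22.2 CPM in controls, and the other 5 overlapped between the groups. None of the 6 was called by edgeR, with adjusted p-values from 0.312 to 0.576.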

How the data were processed

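The authors deposited whole-number counts per gene symbol for each of 6 embryos, with no normalization. Per the submitters' processing notes, Trimmomatic, TopHat2, Bowtie2 and HTSeq were used with the mm9 build; the sources used here give no version, gene annotation or strand setting. Per the labels' protocols, libraries came from a stranded KAPA kit. Groups and replicate numbers came from sample titles. Rows for reads outside genes (9.79% to 18.3% of alignments), ambiguous reads and reads that align more than once (18.2% to 22.6%) stayed out of library sizes and tests.

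The test was that of edgeR 4.0.16 in R 4.3.3 (quasi-likelihood F test, robust, TMM, filterByExpr with minimum count 10 and total 15), with group as the only term. Benjamini-Hochberg adjustment ran over all 15075 genes kept, and an adjusted p under 0.05 was called. The biological coefficient of variation was 12.2%. A standard error is the size of the log2 fold change divided by the root of F. DESeq2 1.42.0 was an alternative. Exonic lengths came from GENCODE M21 on GRCm38, matched by symbol, so levels per kilobase are approximate. In that annotation, exons of genes on the other strand overlap Jun, Jund, Fosl1, H3f3a, Nppa, Ctgf, Araf, Braf, Maf, Bhlhe40 and Hspa1a, and an exon on the same strand overlaps Mafg. How reads in these overlaps were counted is not known.

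Members and lists were chosen with earlier results of these data known. Named were the 9 genes, H3f3a, H3f3b and Trp53, the 10 wider-list genes and 3 genes of each of 6 pathway lists with the smallest p, and the 6 genes most like the set; 1 kinase list gene is not reported here. Jund, Dusp7, Kdr, Cd68, Nppa, Ttr, Epor, Slc4a1, the untested genes and Junos were named after their values were seen. Intervals of ratios over pooled counts, and floors, cover counting error only. Intervals of log2 fold changes come from the standard error of the edgeR fit, which includes variation among libraries. Alternatives were other scalings, filters, DESeq2, a replicate block, leaving out each library, summing the 2 knockouts with a shared code, and adjusting for the percentage of alignments outside genes. Repeat counts were not used here.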

Additional observations from a re-analysis of the deposited data

How the results depend on the processing

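Over 14 alternatives, Egr1, Fos, Jun, Atf3 and Dusp1 kept a fold above 0 wherever they were tested, while Ier2 turned to 0.028 in the fit adjusted for the percentage of alignments outside genes and Junb to -0.18 without knockout 2. The number of the 9 genes called was 1 by DESeq2 and 1 with the covariate (Egr1 both times), and 0 to 2 with single libraries left out, where the 2 were Egr1 and Ier2 without knockout 2. The median over the tested genes was 0.54 with the covariate, which called 4.96% of all genes, and 0.066 to 0.32 with single libraries left out. Of the knockouts, knockout 2 alone lies within the range of that percentage in controls. Of the 37 tested genes of the wider list, DESeq2 called 2, against 5.17% of all genes. The fit with the knockouts of a shared code summed called 2, against 2.93% of all genes, and the covariate fit 6, against 4.96%. Fits without 1 library called 0 to 1 of the wider list, against 0.392% to 10.8% of all genes.

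Over all genes, 83 were called higher and 144 lower. DESeq2 called 456 and 323, the covariate fit 437 and 311, the fit with the summed knockouts 270 higher, the fit with no filter 144 higher, and the fit with at least 1 CPM in 3 libraries 86 lower. Without 1 library, 7 to 1159 were called higher and 53 to 504 lower, the highest numbers without knockout 2. The cause was not tested. Library totals in place of TMM moved the median of all genes to 0.055. Same-numbered embryos did not deviate together in every pair (r = -0.0997, 0.227 and 0.308), and of the knockouts only knockout 3 was most like the control of its own number. With the replicate number as a block, 333 genes were called higher and 256 lower (3.91% of those tested), and 0 of the 9 (Egr1 at an adjusted p of 0.0543). Depth limits Egr3 and Fosb, at 0 to 12 counts a library, and neither could be tested under the filter on low counts.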
